A study of Mus musculus with 6 samples.

Results

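Mast cell and basophil genes were followed in mouse bone marrow cells before and after leukemia driven by Evi1. The set was fixed by name as 10 genes, Cpa3, Ms4a2, Fcer1a, Gzmb, Mcpt8, Prss34, Hdc, Il6, Il4 and Il1rl1, and all 10 were found among the 38924 rows of the deposited expression table. RNA was sequenced from 6 libraries of bone marrow cells from C57BL/6 mice, each sorted from recipients of transduced marrow for GFP and the receptor c-kit, with cells bearing lineage markers left out. The mock group carried GFP alone and was taken at 4 weeks, the preleukemia group carried Evi1-GFP and was taken at 4 weeks, and the leukemia group carried Evi1-GFP and was taken at 6 months, with 2 libraries in each. No GFP group at 6 months was analysed here, so time and leukemia cannot be told apart in the comparisons of the leukemia group. The sources used here do not name the promoter that drives Evi1 and leave unsaid if the 2 libraries of each group are from different animals. The p-values therefore cover the spread among these 6 libraries, and that spread may be technical.

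Mast cells and basophils are granulocytes of the allergic response that arise from bone marrow progenitors through GATA factors, with KIT guiding mast cells and interleukin-3 guiding basophils. Both bind IgE through a receptor built of an alpha chain (Fcer1a), a beta chain (Ms4a2) and a shared gamma chain (Fcer1g), and its crosslinking releases preformed granules of histamine and proteases and starts cytokine secretion. Of the 10 genes, Fcer1a, Ms4a2 and Il1rl1 encode receptor chains, Cpa3, Prss34, Mcpt8 and Gzmb encode granule proteases, Hdc encodes the enzyme that forms histamine, and Il4 and Il6 encode cytokines. Mcpt8 and Prss34 are basophil proteases in the mouse, Cpa3 is shared by both lineages and their progenitors, and Gzmb and Il6 are also made by many other blood cells.

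Levels are in RPKM, reads scaled by the length of the gene model in kilobases and by the depth of the library. The values imply 16921950 to 21641850 reads a library, and the floor for a gene of 1 kb, set at 3 reads, was 0.139 to 0.177 RPKM. Mecom, the gene that encodes Evi1, stood at 0.774 and 0.805 RPKM in the mock libraries and between 61.7 and 80.1 RPKM in the 4 Evi1 libraries, which follows the labels. In the median gene the libraries of a pair differed by 0.22 on the log2 scale in mock and by 0.11 in each of the Evi1 groups. Groups were compared with limma on log2(RPKM + 1), a scale that understates changes of weak genes, for the 10958 genes that reached 1 RPKM in 2 or more libraries. A gene was called higher or lower at a Benjamini-Hochberg adjusted p under 0.05.

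Most of the 10 genes were lower in the Evi1 groups than in mock, and none was called higher in this fit. Mcpt8 was called higher in leukemia against preleukemia in 6 of 16 alternative fits. Of the 10, 8 were tested, while Il6 and Il4 were below the filter on low values. In preleukemia against mock 6 of the 8 fell, where 6.02% of all tested genes were called lower and 13.5% higher, and the members' median log2 fold change was -1.67 beside 0.05 for all genes. In leukemia against mock all 8 tested members fell, beside a background of 13.5% called lower and 12.1% higher, with a median of -2.74 beside -0.04. In leukemia against preleukemia 3 fell (Cpa3, Fcer1a and Gzmb), where 13.0% of all genes were called lower and 5.27% higher, with medians of -0.72 and -0.09. Prss34, Hdc and Il1rl1 reached 1 RPKM in the mock libraries alone, so they were bound to differ and the counts are no support by themselves. Of all calls in preleukemia against mock 69.2% were higher, but 58.6% with TMM scaling and 52.9% with quantile normalization. In leukemia against preleukemia the share was 28.8%, but 42.0% and 50.8% under the same scalings. Both scalings left 6 and 8 members lower against mock, but in leukemia against preleukemia they gave 2 lower (Cpa3 and Gzmb) and 1 higher (Mcpt8). In these bulk samples, fewer cells of a type and less RNA per cell cannot be told apart.

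**Figure D1:**
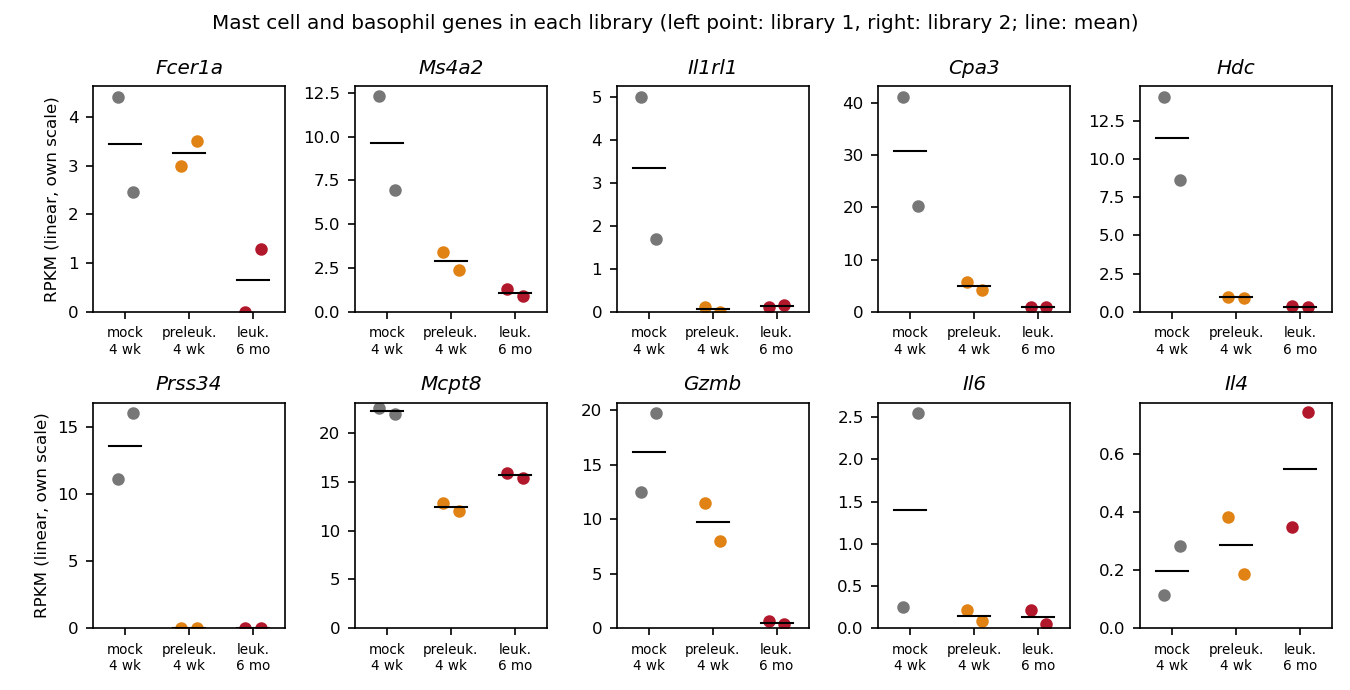
RPKM of each of the 10 genes in the 6 libraries, on a linear axis of its own for each gene, with points for libraries and lines for group means. Cpa3, Ms4a2 and Hdc step down from mock to preleukemia to leukemia, Prss34 and Il1rl1 are near 0 in both Evi1 groups, Gzmb is near 0 in leukemia, and Mcpt8 is at its lowest at 12 RPKM.

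Both libraries of preleukemia lay below both of mock for 7 of the 8 tested members, beside 25.5% of all genes below and 37.2% above. For leukemia against mock it was 8 of 8, beside 35.5% below and 30.0% above. For leukemia against preleukemia it was 5 below and 2 above (Mcpt8 and Il1rl1), beside 46.0% and 24.7% of all genes. Prss34, Hdc and Il1rl1 passed the filter through the mock libraries alone, so they were bound to lie below mock. The counts against mock are therefore no support by themselves.

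The counts moved with single libraries. In preleukemia against mock the number of members called was 4 without preleukemia library 1 or 2 and 7 without mock library 1. In leukemia against mock it was 5 without leukemia library 1 and 6 without leukemia library 2. In leukemia against preleukemia it ranged from 1 (without either preleukemia library or leukemia library 1) to 6 (without either mock library). In these fits the remaining library of a pair is assumed to vary like the other groups.

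Upstream sequences of 5 members are shown because these genes share a cell lineage but differ in their course. Cpa3 and Ms4a2 fell in both Evi1 groups with reads left in each, and Prss34 and Il1rl1 came down to near 0. Mcpt8 fell least of the 5, to a mean of 0.559 of mock in preleukemia and 0.703 in leukemia. The sequences are the 250 bases before the annotated start from RefSeq (GRCm38.p6), on the gene's strand. Capitals mark GATAA or its reverse complement TTATC, the core that GATA factors read.
Cpa3 (chr3:20242182-20242431, minus strand): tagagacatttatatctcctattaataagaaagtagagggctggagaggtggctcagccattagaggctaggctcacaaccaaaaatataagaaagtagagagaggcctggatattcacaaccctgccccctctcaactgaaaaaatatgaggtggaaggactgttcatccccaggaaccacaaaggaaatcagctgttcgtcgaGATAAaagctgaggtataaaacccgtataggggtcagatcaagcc
Ms4a2 (chr19:11623720-11623969, minus strand): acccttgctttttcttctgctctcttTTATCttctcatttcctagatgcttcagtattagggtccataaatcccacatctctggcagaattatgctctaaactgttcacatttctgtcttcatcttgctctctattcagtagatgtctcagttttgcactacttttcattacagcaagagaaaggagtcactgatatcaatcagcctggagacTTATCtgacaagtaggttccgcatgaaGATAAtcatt
Prss34 (chr17:25298144-25298393, plus strand): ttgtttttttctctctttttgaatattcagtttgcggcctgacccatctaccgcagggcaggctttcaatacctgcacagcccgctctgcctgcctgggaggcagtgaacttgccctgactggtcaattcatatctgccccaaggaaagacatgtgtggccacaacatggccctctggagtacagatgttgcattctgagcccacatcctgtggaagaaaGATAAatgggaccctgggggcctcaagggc
Il1rl1 (chr1:40429320-40429569, plus strand, first annotated start): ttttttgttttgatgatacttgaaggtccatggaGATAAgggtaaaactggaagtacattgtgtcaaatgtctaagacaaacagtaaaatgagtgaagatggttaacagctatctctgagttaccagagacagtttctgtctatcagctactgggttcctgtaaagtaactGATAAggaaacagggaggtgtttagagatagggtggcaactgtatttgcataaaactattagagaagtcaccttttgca
Mcpt8 (chr14:56085198-56085447, minus strand): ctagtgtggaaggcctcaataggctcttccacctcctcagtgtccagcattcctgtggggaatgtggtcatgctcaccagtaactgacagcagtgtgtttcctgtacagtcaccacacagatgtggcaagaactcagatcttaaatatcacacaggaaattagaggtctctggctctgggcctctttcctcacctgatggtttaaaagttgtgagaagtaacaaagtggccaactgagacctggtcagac

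Among the printed windows, Cpa3 has 1 match at -45 to -41 from the start, Prss34 has 1 at -30 to -26, Ms4a2 has 3, Il1rl1 has 2 and Mcpt8 has none. All 10 members matched the promoter table, Il4 and Il1rl1 with 2 starts each, which gave 12 windows of 300 bases (250 before and 50 after the start). GATAA on either strand was found in 8 of the 12 windows and in 7 of the 10 genes, Cpa3, Ms4a2, Fcer1a, Prss34, Il6, Il4 and Il1rl1, where 25.4% of all 32851 such windows hold it. The windows of Gzmb, Mcpt8 and Hdc hold no match, and Hdc is one of the genes that fell most. The Hdc window (chr2:126618629-126618928) does not reach the GENCODE start of that gene at 126619299, and the bases before that start were not searched. The E-box CANNTG stood in 11 of 12 windows beside 72.3% of all, and GGAA (TTCC on the other strand), the core of ETS sites, in 11 of 12 beside 96.0%. TTCNNNGAA, the core of STAT sites, stood in 2 of 12 (Gzmb and Il4) beside 8.30%, and TGANTCA, the core of AP-1 sites, in 2 of 12 (Gzmb and Il6) beside 7.81%. CANNTG, TTCNNNGAA and TGANTCA are their own reverse complements, and none of the matches is a measured binding site.

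**Figure D2:**
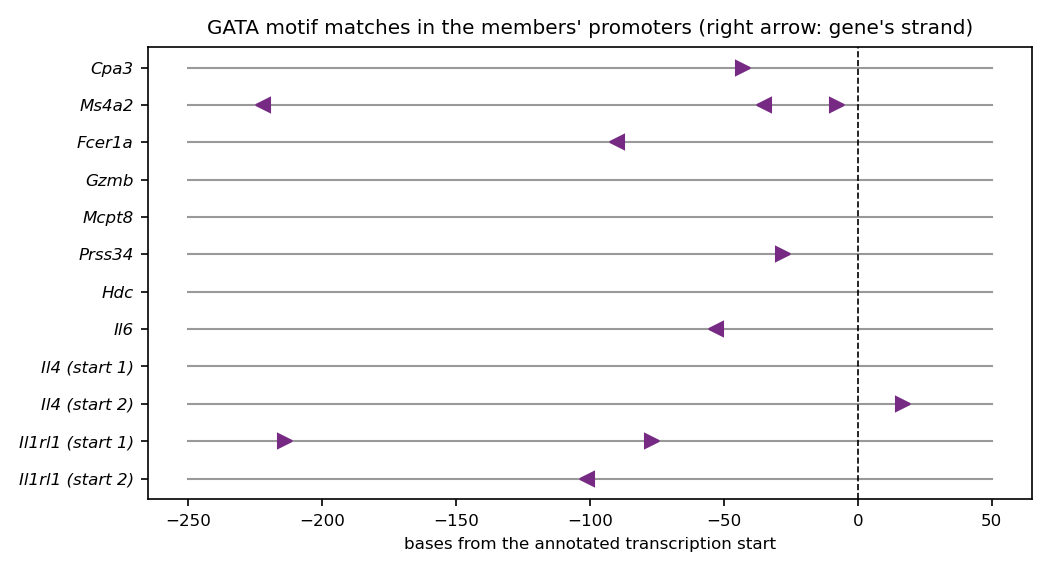
Positions of GATAA (arrow to the right, on the gene's strand) and TTATC (arrow to the left) in the 12 promoter windows of the members, in bases from the annotated start. Matches lie within 50 bases of the start in Cpa3, Ms4a2, Prss34 and the second start of Il4, and none is present in Gzmb, Mcpt8 and Hdc.

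Among the receptor chains, Ms4a2 and Il1rl1 fell in preleukemia and leukemia against mock, and Fcer1a fell in leukemia against both other groups. Ms4a2 (ENSMUSG00000024680.12, chr19:11615523-11623719, minus strand, GRCm38), the beta chain that amplifies the signal of the IgE receptor, stood at 12.3 and 6.92 RPKM in the mock pair, 3.44 and 2.38 in preleukemia and 1.3 and 0.885 in leukemia. Both mock libraries were above all 4 Evi1 libraries, and both preleukemia libraries were above both leukemia libraries. Its log2 fold change was -1.41 (SE 0.27, limma adjusted p = 0.0160) in preleukemia and -2.30 (adjusted p = 0.00222) in leukemia. The further step from preleukemia to leukemia did not pass, at -0.90 with a 95% interval of -1.54 to -0.25 (limma adjusted p = 0.0650), but it did in 7 of 16 alternatives, among them without either mock library (0.0181 and 0.0175). The preleukemia call was lost without preleukemia library 1 (limma adjusted p = 0.0525) or library 2 (0.117), and with no filter on low values (0.0649).

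Fcer1a (ENSMUSG00000005339.10, chr1:173221284-173227214, minus strand), the alpha chain that binds IgE itself, stood at 4.42 and 2.46 RPKM in mock and 2.99 and 3.51 in preleukemia. It was listed at 0 in leukemia library 1 and stood at 1.29 RPKM, about 26 reads, in leukemia library 2. The mock and preleukemia libraries overlapped, and both leukemia libraries were below all 4 others. The difference between preleukemia and mock was -0.03 on the log2 scale with a 95% interval of -0.97 to 0.92 (limma adjusted p = 0.966). The sign of that difference turned to 0.30 without mock library 1 and to 0.06 without preleukemia library 1. In leukemia it fell by 1.52 against mock (adjusted p = 0.0334) and by 1.49 against preleukemia (limma adjusted p = 0.0444). Both calls were lost without leukemia library 1 (limma adjusted p = 0.110 and 0.163), the first also without mock library 1 (0.0995) or either preleukemia library (0.0648 each) and the second without preleukemia library 1 (0.146) or library 2 (0.211). With no filter neither call passed (limma adjusted p = 0.104 and 0.135), nor did they with a pseudocount of 0.1 (0.0742 and 0.0926) or with voom (0.0575 and 0.0729). The second was also lost with TMM scaling (limma adjusted p = 0.0554) and quantile normalization (0.0552). In all, the call against mock was lost in 9 of 16 alternatives and that against preleukemia in 10 of 16.

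Il1rl1 (ENSMUSG00000026069.15, chr1:40429570-40465415, plus strand) encodes ST2, the receptor for interleukin-33. It stood at 5.0 and 1.70 RPKM in the mock libraries, 0.103 and 0.00670 in preleukemia and 0.104 and 0.162 in leukemia. These values correspond to about 745 and 237 reads in mock and to between 1 and 22 reads in each Evi1 library, so every Evi1 library held some reads. All 4 Evi1 libraries were far below both mock libraries, and the mean level was 61.2 times higher in mock than in preleukemia and 25.2 times higher than in leukemia. The log2 fold change was -1.93 (SE 0.35, limma adjusted p = 0.0129) in preleukemia and -1.83 (adjusted p = 0.0119) in leukemia. Each call was lost when 1 Evi1 library of its comparison was left out (limma adjusted p = 0.0637 and 0.0907 without preleukemia library 1 and 2, 0.0628 and 0.0593 without leukemia library 1 and 2), and the first also with no filter (0.0513). Leukemia and preleukemia differed by 0.10 with a 95% interval of -0.73 to 0.94 (limma adjusted p = 0.866).

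The granule proteases followed different courses. Cpa3 (ENSMUSG00000001865.2, chr3:20215620-20242181, minus strand), a carboxypeptidase stored in granules with proteoglycan, stood at 41.2 and 20.3 RPKM in the mock pair, 5.62 and 4.26 in preleukemia and 0.885 and 0.911 in leukemia. None of the groups overlapped, and the mock libraries differed from each other by more than the libraries of any Evi1 pair. The means were 30.8 ± 14.8, 4.94 ± 0.956 and 0.898 ± 0.0185 RPKM (SD, n = 2 each), a ratio of 6.23 between mock and preleukemia and of 5.5 between preleukemia and leukemia. Its log2 fold change was -2.35 (SE 0.30, limma adjusted p = 0.00434) in preleukemia and -3.98 (adjusted p = 0.000544) in leukemia. From preleukemia to leukemia it fell by 1.64 (limma adjusted p = 0.0145). That call was lost in 6 of 16 alternatives: without any 1 of the 4 libraries compared, with no filter (0.0612) and with voom (0.0921).

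Prss34 (ENSMUSG00000056399.2, chr17:25298394-25300165, plus strand), the basophil tryptase mMCP-11, stood at 11.1 and 16.0 RPKM in mock. It stood at 0.0486 and 0 RPKM in preleukemia and at 0 and 0.0419 in leukemia, which is 1 read in 1 library of each Evi1 group. The mock libraries held about 293 and 394 reads, so the gene was at the detection floor in every Evi1 library. Over the reads of each group, mock was 634 times higher than preleukemia, with a 95% counting interval of 113 to 25060, and 668 times higher than leukemia (119 to 26409). The intervals cover counting error alone. The log2 fold changes of -3.81 (limma adjusted p = 0.000203) and -3.82 (adjusted p = 0.000130) depend on the pseudocount of 1.

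Mcpt8 (ENSMUSG00000022157.8, chr14:56082166-56085273, minus strand), the basophil protease mMCP-8, changed least among the members called in both comparisons with mock. It stood at 22.6 and 21.9 RPKM in the mock libraries, 12.9 and 12 in preleukemia and 15.9 and 15.4 in leukemia. Its values in the 3 groups did not overlap, and those of preleukemia were lowest. It fell by 0.79 in preleukemia (SE 0.10, limma adjusted p = 0.00362) and by 0.48 in leukemia (adjusted p = 0.0139), and the leukemia call was lost without leukemia library 1 (0.0799) or 2 (0.108). Leukemia was 0.31 above preleukemia with a 95% interval of 0.08 to 0.54, which did not pass (limma adjusted p = 0.0701) but did with TMM scaling (0.0287), with quantile normalization (0.0250) and without either mock library (0.0313 and 0.0312). Prss34 and Mcpt8, both proteases of basophils, stood at 11.1 to 16.0 and 21.9 to 22.6 RPKM in mock and were far apart in the Evi1 libraries. In leukemia against mock the 95% intervals of their fold changes were -4.27 to -3.36 for Prss34 and -0.71 to -0.25 for Mcpt8.

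Gzmb (ENSMUSG00000015437.5, chr14:56258838-56262260, minus strand), granzyme B, lies 174 kb from Mcpt8 in the chymase locus. It stood at 12.5 and 19.7 RPKM in the mock pair, 11.5 and 8.02 in preleukemia and 0.638 and 0.359 in leukemia. Both leukemia libraries were far below the other 4, with about 19 and 10 reads beside 246 to 565. It fell by 3.49 against mock (limma adjusted p = 0.000427), a ratio of mean RPKM of 32.4. Against preleukemia it fell by 2.83 (limma adjusted p = 0.00193), a ratio of 19.6. Preleukemia was 0.66 below mock with a 95% interval of -1.25 to -0.06 and was not called (limma adjusted p = 0.111), but it was without mock library 1 (0.0261). Of 10 markers of T and NK cells, other sources of granzyme B, Nkg7 and Klrd1 alone reached 1 RPKM in any library, the latter in mock library 2 at 1.35, while Cd3e, Cd3d, Cd3g, Cd8a, Prf1 and Ncr1 were at or near 0 in all 6. Nkg7, a granule membrane protein, stood at 87.7 and 47.1 RPKM in the mock libraries, 66.7 and 67.2 in preleukemia and 6.83 and 14.6 in leukemia. Like Gzmb it was lower in leukemia than in both other groups. Within the mock pair and within the leukemia pair, Nkg7 and Gzmb ran in opposite order. The part of Nkg7 in the result was not tested.

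Hdc (ENSMUSG00000027360.5, chr2:126593667-126619299, minus strand), histidine decarboxylase, stood at 14.1 and 8.64 RPKM in the mock pair, 0.999 and 0.882 in preleukemia and 0.358 and 0.303 in leukemia. All 4 Evi1 libraries were below both mock libraries, and both leukemia libraries were below both preleukemia libraries. Mean Hdc was 12.1 times higher in mock than in preleukemia and 34.4 times higher than in leukemia. Its log2 fold change was -2.64 (SE 0.22, limma adjusted p = 0.00109) in preleukemia and -3.18 (adjusted p = 0.000375) in leukemia. The difference between leukemia and preleukemia was -0.54 with a 95% interval of -1.07 to -0.02 and did not pass (limma adjusted p = 0.136), but it did without either mock library (0.0258 and 0.0242). With about 38 to 122 reads a library, Hdc was above the detection floor in all 4 Evi1 libraries.

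**Figure D3:**
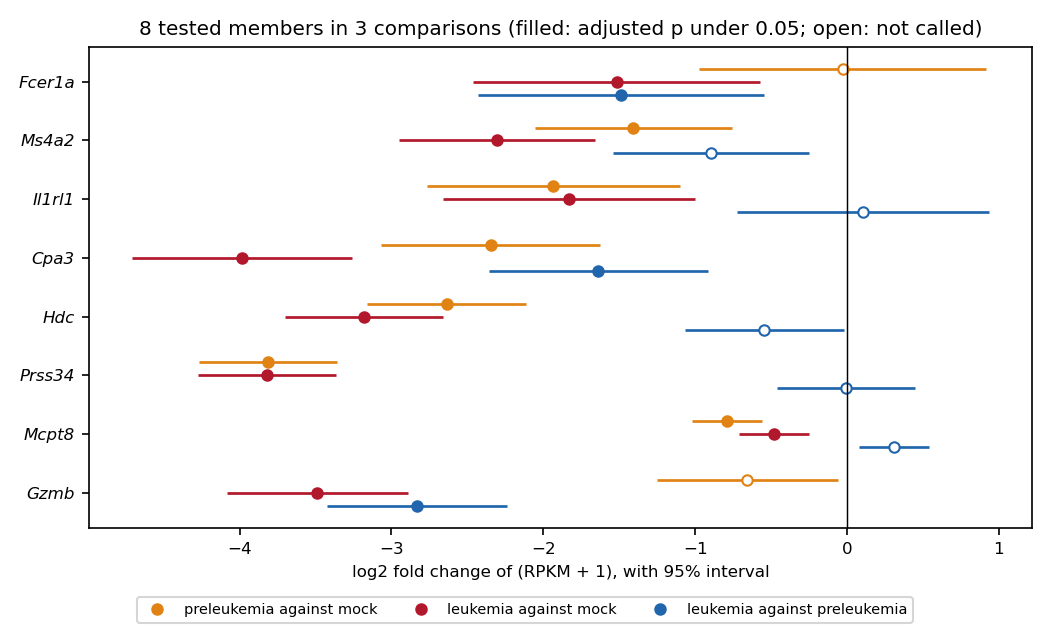
Log2 fold change of (RPKM + 1) of the 8 tested members in the 3 comparisons, with 95% intervals from limma. Filled points passed the adjusted p of 0.05 and open points did not. In leukemia against mock all 8 are filled and lie from -3.98 (Cpa3) to -0.48 (Mcpt8).

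The cytokine genes were near the floor in most libraries and had no test. Il6 (ENSMUSG00000025746.11, chr5:30013114-30019981, plus strand), a cytokine of inflammation, stood at 0.255 and 2.55 RPKM in the mock libraries, 0.217 and 0.0850 in preleukemia and 0.219 and 0.0468 in leukemia. Mock library 2, at about 56 reads, stood apart from all others, which held 1 to 6 reads. Without the filter on low values, limma gave -0.88 in preleukemia (adjusted p = 0.354) and -0.90 in leukemia (adjusted p = 0.314). Summed markers of monocytes and macrophages, another source of Il6, ran from 332 to 462 RPKM in mock (the higher in library 2), 311 to 346 in preleukemia and 83.7 to 110 in leukemia, over 6 of 7 listed genes found in the table. Ly6c2 held most of that sum in mock and preleukemia, at 277 and 390 RPKM in the mock libraries and 5.68 and 34.8 in leukemia. Cd68 rose from 12.6 and 16.6 RPKM in mock to 45.2 and 49.6 in leukemia (1.64, limma adjusted p = 0.000763), and Csf1r was not called there (adjusted p = 0.169). Their part in the level of Il6 was not tested.

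Il4 (ENSMUSG00000000869.12, chr11:53602982-53618669, minus strand), the cytokine of type 2 immunity that basophils secrete, went the other way. It stood at 0.113 and 0.282 RPKM in the mock pair, 0.385 and 0.188 in preleukemia and 0.349 and 0.747 in leukemia. Both leukemia libraries were above both mock libraries, while the preleukemia libraries overlapped both other groups. These values rest on 10 reads in the mock pair, 13 in the preleukemia pair and 27 in the leukemia pair, and the ratio of mock to leukemia was 0.360 with a 95% counting interval of 0.155 to 0.767. Without the filter, limma called none of the 3 differences of Il4 (adjusted p = 0.740, 0.224 and 0.444). Its neighbours Il13 and Il5 were at most 0.346 and 0.192 RPKM in any library.

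The mock libraries differed in a way that divided the members. Il1rl1, Cpa3, Fcer1a, Ms4a2 and Hdc were higher in mock library 1, with ratios of library 2 to library 1 of 0.340, 0.494, 0.557, 0.562 and 0.613. Mcpt8 was level at 0.972, and Prss34, Gzmb, Il4 and Il6 were higher in mock library 2, at 1.44, 1.57, 2.5 and 9.98, of which the ratio of Il4 rests on 3 and 7 reads. Summed markers of erythroid cells and megakaryocytes, which share Gata1 with mast cells, were also higher in mock library 1, at 247 and 121 RPKM. That sum was 195 and 127 in preleukemia and 5.44 and 21.2 in leukemia, over 9 of 10 listed genes in the table. Car1 held most of it in mock, at 174 and 73.4 RPKM, and Pf4 alone was higher in mock library 2 (9.24 and 11.6). In preleukemia Pf4 stood at 43.7 and 30.9 RPKM (1.73, limma adjusted p = 0.00614), a call lost with a pseudocount of 0.1. Car1, at 86.2 and 48.6 in preleukemia, was not called there (adjusted p = 0.369). The part of erythroid cells and megakaryocytes in the members' levels was not tested.

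**Figure D4:**
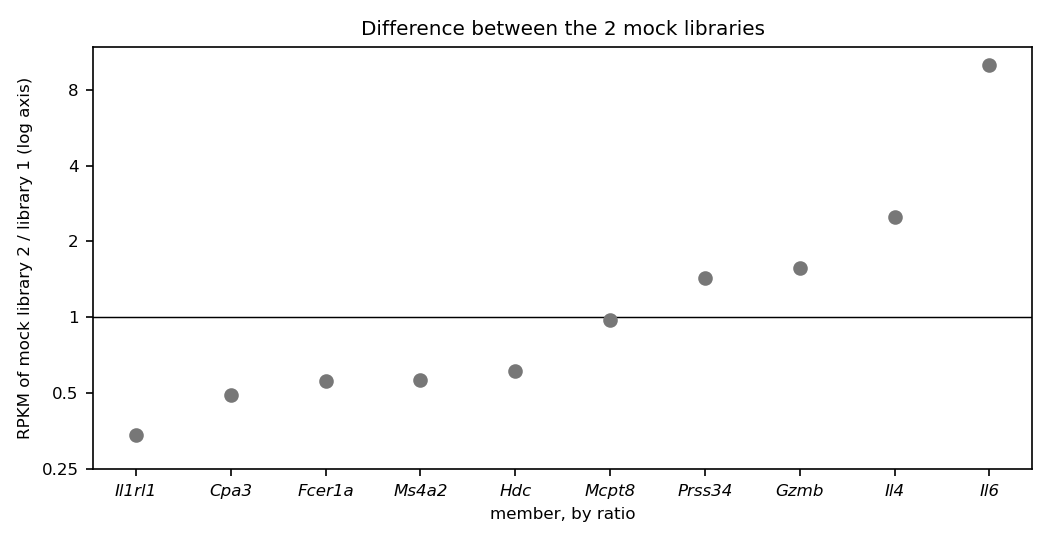
Ratio of RPKM in mock library 2 to mock library 1 for each of the 10 genes, on a log axis, ordered by the ratio. The points run from 0.340 for Il1rl1 to 9.98 for Il6, with 6 genes below 1 and 4 above.

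Markers of ripe mast cells were absent. Cma1 and Tpsb2, the connective tissue chymase and tryptase, were at 0 in all 6 libraries, and Mcpt4 and Tpsab1 reached 0.10 RPKM at most, in mock library 2. Kit, the receptor on which the cells were sorted and a mast cell marker, stood at 69.2 and 57.7 RPKM in the mock libraries, 60.0 and 56.9 in preleukemia and 49.3 and 46.8 in leukemia. Cd200r3, an activating receptor of basophils and mast cells, ran against the members. It stood at 0.124 and 0.157 RPKM in the mock pair, 2.04 and 1.33 in preleukemia and 3.04 and 3.56 in leukemia. It rose by 1.22 in preleukemia (limma adjusted p = 0.00646) and by 1.91 in leukemia (adjusted p = 0.00109). Cd200r3 passed the filter through the Evi1 libraries alone, so it was bound to differ from mock and these calls are no support by themselves. The further rise of 0.69 from preleukemia to leukemia (limma adjusted p = 0.0410) was lost without any 1 of those 4 libraries, with pseudocounts of 0.1 (0.0814) and 0.5 (0.0515) and with no filter (0.0995). In mock the label of the set is met by basophil proteases (Mcpt8 and Prss34) and by genes that basophils share with mast cells, while the defining proteases of tissue mast cells are absent.

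Markers of eosinophils, the neighbouring granulocyte lineage, were among those that set leukemia library 2 apart. Summed over 9 genes, of which 4 reached 1 RPKM in any library, they stood at 54.2 and 34.1 RPKM in the mock libraries, 88.3 and 88.6 in preleukemia and 5.44 and 174 in leukemia. Prg2, the major basic protein, was at 1.87 RPKM in leukemia library 1 and 133 in library 2, and Epx, eosinophil peroxidase, at 1.60 and 19.9. Markers of other lineages were also higher in leukemia library 2 than in library 1. Among them were Ngp (2.46 RPKM in library 1 and 25.8 in library 2), Car1 (0.534 and 3.34) and Ly6c2 (5.68 and 34.8). Mpo (967 and 851) and Csf1r (27.1 and 20.4) were lower in library 2. Fcer1a and Il4 were also higher in leukemia library 2, whereas Cpa3, Mcpt8 and Hdc differed little between the leukemia libraries. Summed neutrophil markers ran from 2205 to 2969 RPKM in mock, 7672 to 12360 in preleukemia and 1777 to 2026 in leukemia. The genes of that list moved in opposite directions in leukemia against mock: S100a8 rose from 6.25 and 5.68 RPKM to 227 and 373 (5.39, limma adjusted p = 0.000285), and Elane fell from 702 and 525 RPKM to 156 and 207 (-1.75, adjusted p = 0.00203). The part of these lineages in the members' levels was not tested.

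Other genes of the IgE receptor and of cytokine receptors were divided in direction. Of 15 listed, 11 were tested: in preleukemia 2 rose and 3 fell (median log2 fold change -0.11 beside 0.05 for all genes), and in leukemia 4 rose and 5 fell (-0.39 beside -0.04). From preleukemia to leukemia 3 rose and 1 fell. Of all tested genes, 13.5% were called higher and 6.02% lower in preleukemia. In leukemia against mock the shares were 12.1% and 13.5%, and from preleukemia to leukemia 5.27% and 13.0%. Fcer1g, the gamma chain shared by Fc receptors, stood at 37.1 and 51.5 RPKM in the mock pair, 20.2 and 24.5 in preleukemia and 7.68 and 14.6 in leukemia. It was lower by 1.94 in leukemia (limma adjusted p = 0.00488), while -0.94 in preleukemia did not pass (limma adjusted p = 0.0641). All 3 chains of the IgE receptor were therefore called lower in leukemia against mock in the main fit. The call of Fcer1a was lost in 9 of 16 alternatives. Csf2rb, the common beta chain of the receptors for interleukin-3, interleukin-5 and GM-CSF, fell from 23.8 and 30.9 RPKM in mock to 9.87 and 7.85 in preleukemia and 6.32 and 4.55 in leukemia (-1.52, limma adjusted p = 0.00417, and -2.14, adjusted p = 0.000961). Il3ra, its partner for interleukin-3, rose by 0.71 in leukemia (limma adjusted p = 0.0130), a call that was lost without either leukemia library. Leaving out 1 library moved the counts of this list to between 1 and 3 higher and 1 and 4 lower in preleukemia, and between 2 and 5 higher and 3 and 5 lower in leukemia. From preleukemia to leukemia they ranged from 0 to 4 in either direction.

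Genes that carry the signal from the IgE receptor moved in both directions. Of 16 listed and 15 tested, 3 rose and 3 fell in preleukemia and likewise in leukemia. Their medians were -0.11 and 0.05, beside 0.05 and -0.04 for all genes. The shares of all tested genes were 13.5% higher and 6.02% lower in preleukemia, and 12.1% and 13.5% in leukemia against mock. Lat, the adaptor that assembles the signalling complex, stood at 6.46 and 9.27 RPKM in the mock libraries, 3.82 and 1.98 in preleukemia and 2.19 and 2.63 in leukemia. It fell by 1.21 (limma adjusted p = 0.0226) and by 1.36 (adjusted p = 0.0119), but the first call was lost without mock library 2 or preleukemia library 2, with no filter (0.0805) and with array weights (0.0575), and the second without either leukemia library. The kinases Lyn and Syk, which act next to the receptor, were between 16.9 and 28.5 RPKM in all 6 libraries and were not called in any comparison. Leaving out 1 library moved the counts of this list to between 0 and 4 higher and 0 and 7 lower in preleukemia, and between 0 and 4 in either direction in leukemia.

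**Figure D5:**
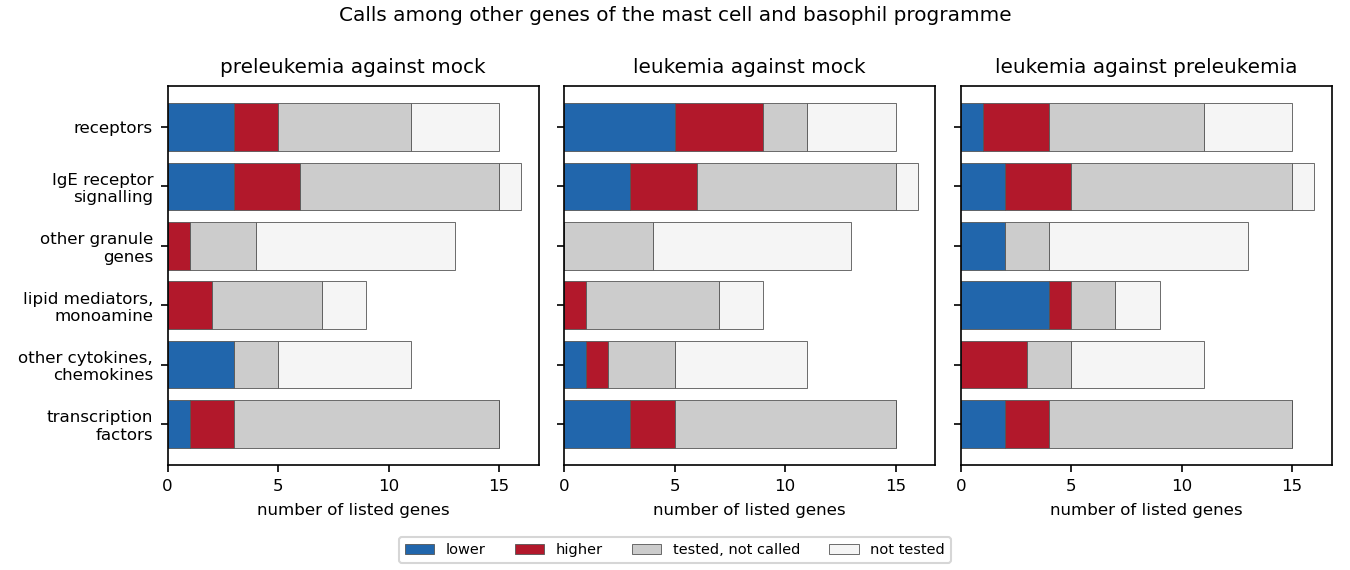
Number of listed genes called lower, called higher, tested without a call and not tested, for 6 further lists of the mast cell and basophil programme in the 3 comparisons. Receptors have 5 lower and 4 higher in leukemia against mock, and other granule genes have no call there.

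Of 13 other granule genes, 4 passed the filter, since most tissue proteases were at or near 0. In preleukemia 1 rose and in leukemia none was called against mock, while 2 fell from preleukemia to leukemia. Among all tested genes 13.5% rose and 6.02% fell in preleukemia, and 12.1% rose and 13.5% fell in leukemia against mock. From preleukemia to leukemia 5.27% of all rose and 13.0% fell. Srgn, the proteoglycan core that holds proteases and histamine in granules, stayed between 168 and 250 RPKM in all 6 libraries and was not called against mock (limma adjusted p = 0.0509 in preleukemia and 0.640 in leukemia). Ctsg, cathepsin G, which neutrophil precursors also make, rose by 0.80 in preleukemia (limma adjusted p = 0.0185), a call lost without either preleukemia library and with no filter (0.0791), and fell by 1.29 from there to leukemia (limma adjusted p = 0.00422). Cathepsin G lies 14.6 kb from Mcpt8, which was lowest where Ctsg was highest. With 1 library left out, 0 to 2 of these genes rose in preleukemia, and 1 to 2 fell from there to leukemia.

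Genes for lipid mediators and monoamines moved in both directions. Of 9 listed and 7 tested, 2 rose in preleukemia and 1 in leukemia, and from preleukemia to leukemia 1 rose and 4 fell. Among all tested genes 13.5% rose in preleukemia and 12.1% in leukemia against mock. From preleukemia to leukemia 5.27% of all rose and 13.0% fell. Ptgs1, cyclooxygenase-1, rose from 3.70 and 2.71 RPKM in mock to 17.9 and 24.8 in preleukemia (2.40, limma adjusted p = 0.00296) and stood at 2.57 and 4.97 in leukemia. Ltc4s, leukotriene C4 synthase, stood at 0.691 and 0.134 RPKM in mock and 0.562 and 0.377 in preleukemia and rose to 3.17 and 2.70 in leukemia (1.5, limma adjusted p = 0.00479). Ltc4s passed the filter through the leukemia libraries alone. With 1 library left out, 1 to 2 of the list rose in preleukemia, 0 to 1 fell in leukemia against mock, and 0 to 1 rose and 2 to 4 fell from preleukemia to leukemia.

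Among 11 other cytokines and chemokines of these cells, 5 were tested. In preleukemia 3 fell and none rose, beside 6.02% of all tested genes called lower and 13.5% higher. Tnf stood at 6.86 and 6.82 RPKM in the mock pair, 0.252 and 0.423 in preleukemia and 2.03 and 1.06 in leukemia, and fell by 2.55 (limma adjusted p = 0.00100) and by 1.65 (adjusted p = 0.00272). Ccl3, a chemokine of many myeloid cells, fell by 1.68 in preleukemia (limma adjusted p = 0.0131) and rose by 1.43 in leukemia against mock (adjusted p = 0.0171), the first lost without preleukemia library 1 and the second without either leukemia library. With no filter neither call passed (limma adjusted p = 0.0560 and 0.0624). In leukemia against mock 1 of the 5 rose and 1 fell, beside 12.1% and 13.5% of all tested genes. From preleukemia to leukemia 3 rose, beside 5.27% of all. With 1 library left out, 2 to 4 fell in preleukemia, 0 to 1 rose and 1 to 2 fell in leukemia against mock, and 2 to 3 rose from preleukemia to leukemia.

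Transcription factors of the lineage were mostly not called. Of 15 listed and tested, 2 rose and 1 fell in preleukemia, beside 13.5% and 6.02% of all tested genes. In leukemia against mock 2 rose and 3 fell, beside 12.1% and 13.5%. From preleukemia to leukemia 2 rose and 2 fell, beside 5.27% and 13.0%. Gata2, which basophil and mast cell progenitors need, stood at 66.7 and 44.3 RPKM in the mock libraries, 51.7 and 41.4 in preleukemia and 55.9 and 54.8 in leukemia, and was called in none of the comparisons (limma adjusted p = 0.446, 0.940 and 0.421). Mitf, the factor that drives many mast cell protease genes, was between 1.43 and 2.41 RPKM and was not called either. Tal1, a partner of GATA factors, stood at 21.2 and 10.9 RPKM in the mock pair, 13.5 and 10.1 in preleukemia and 1.96 and 2.58 in leukemia and fell by 2.32 in leukemia against mock (limma adjusted p = 0.00293). Gata1 stood at 15.2 and 6.60, 10.9 and 4.98, and 0.840 and 2.61 RPKM in the same order and fell by 2.11 in leukemia against mock (limma adjusted p = 0.0238), a call lost without mock library 1 or leukemia library 1, with no filter (0.0816) and with array weights (0.0558). Leaving out 1 library moved the counts of the list to between 0 and 3 in either direction in preleukemia, and to between 0 and 3 higher and 1 and 3 lower in leukemia against mock. From preleukemia to leukemia they ranged from 0 to 2 higher and 0 to 4 lower.

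Genes next to the members were called mostly higher in preleukemia and in both directions in the other comparisons. Of 102 protein-coding genes within 250 kb of a member, 45 were tested. In preleukemia 11 rose (24.4%) and 1 fell (2.22%), beside 13.5% and 6.02% of all tested genes. In leukemia against mock 9 rose (20%) and 6 fell (13.3%), beside 12.1% and 13.5%. From preleukemia to leukemia 4 rose (8.89%) and 10 fell (22.2%), beside 5.27% and 13.0%. With 1 library left out, 3 to 15 rose and 1 to 7 fell in preleukemia, 4 to 13 rose and 3 to 10 fell in leukemia against mock, and 0 to 8 rose and 5 to 13 fell from preleukemia to leukemia. Il18r1, whose gene begins 0.137 kb beyond the end of Il1rl1 on the same strand and encodes the receptor for interleukin-18, stood at 0.429 and 0.875 RPKM in the mock libraries, 1.03 and 1.10 in preleukemia and 2.53 and 2.34 in leukemia. It rose by 1.07 in leukemia against mock (limma adjusted p = 0.00720), where Il1rl1 fell by 1.83. The call of Il18r1 was lost without leukemia library 1. Il18r1 passed the filter through the Evi1 libraries alone, so it was bound to differ from mock. Il18rap, the second chain of that receptor, 49.9 kb from Il1rl1, stood at 2.51 and 4.34 RPKM in mock and at 9.81 and 12.2 in leukemia and rose by 1.47 (limma adjusted p = 0.00457). Ms4a3, a gene of granulocyte and monocyte progenitors 5.78 kb from Ms4a2, stood at 83.5 and 62.0 RPKM in the mock pair, 153 and 211 in preleukemia and 23.2 and 40.5 in leukemia. It rose by 1.31 in preleukemia (limma adjusted p = 0.0233), where Ms4a2 fell, and this call was lost without mock library 2 or either preleukemia library, with no filter (0.0825) and with array weights (0.0694).

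The members' courses over the 6 libraries were alike to different degrees. Each of the 8 tested members was standardised on the log2(RPKM + 1) scale, and the mean of the 8 profiles was 1.27 and 0.89 standard deviations in the mock libraries, -0.19 and -0.33 in preleukemia, and -0.87 and -0.77 in leukemia. For a member and the mean of the other 7, the correlation, given as a description over 6 libraries that share their groups, was 0.99 for Cpa3 and Hdc, 0.97 for Ms4a2, 0.91 for Prss34 and 0.90 for Il1rl1. It was 0.75 for Gzmb, 0.70 for Mcpt8 and 0.59 for Fcer1a. Of the genes outside the set with a range of at least 2 on the log2 scale, 526 were compared with the mean profile, and 41 of them reached a correlation of at least 0.95. The 5 most alike were Cnr2, the peripheral cannabinoid receptor (0.996), Tceal8 (0.995), Trib2, a pseudokinase (0.994), Prss50 (0.989) and Samd14 (0.989). Cnr2, as the nearest of them, stood at 5.05 and 3.29 RPKM in the mock pair, 1.10 and 0.592 in preleukemia and 0.0478 and 0.204 in leukemia.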

How the data were processed

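The 10 members and the further gene lists were chosen with earlier results of these data known. The authors deposited 1 table of RPKM values for 6 libraries, a unit read from the numbers themselves: with exon lengths of GENCODE release 21, 64.1% to 66.0% of low values (under 20 reads) came to a whole read within 0.02. Per the submitters' processing notes, CASAVA 1.8.2 and the build GRCm38 were used, with no roles given. Aligner, counter and annotation: not given in the sources used here. Per the labels' protocols the library kit was NEB Next Ultra, a kit without strand marking by its name. Reads per member were recovered with the gene length that made all libraries whole, which Mcpt8 lacked, and for Ms4a2 a multiple of 2 also gave whole reads. Of 38924 rows, 35433 (91.0%) matched 1 GENCODE gene, whose GRCm38 positions are given.

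All 6 libraries were fitted together with limma 3.58.1 in R 4.3.3 on log2(RPKM + 1), with a spread that follows the level (3 residual and 3.70 prior degrees of freedom), no covariate and two-sided tests. The fit was also run on simulated data that gave every group the same spread. In the libraries here the mock pair differed more than the Evi1 pairs, so no conclusion is drawn from that run. Alternatives were other pseudocounts, no filter, TMM or quantile scaling, no trend, 4 libraries, the replicate block and each library left out. Array weights and limma's voom on implied reads were chosen after seeing the data. All members are named. Of each list the up to 4 genes with the smallest p past the threshold could be named, with receptor, granule and transcription factor genes that bear on a member, and the 5 most alike genes. Lyn, Syk and the neighbouring and marker genes described were chosen after their values were seen.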

Additional observations from a re-analysis of the deposited data

How the results depend on the processing

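Over the 16 alternatives to each tested member's fold change, 325 values kept their direction and call, 19 gained a call, 35 lost one and 5 changed sign. Gzmb in leukemia, and Cpa3, Hdc and Prss34 against mock, kept their calls in all 16. So did Ms4a2 in leukemia against mock and Mcpt8 in preleukemia against mock. The sign changed for Fcer1a in preleukemia against mock, to 0.30 without mock replicate 1 and 0.06 without preleukemia replicate 1 (range -0.35 to 0.30 with 1 library left out), and for Prss34 in leukemia against preleukemia, to 0.13 with quantile normalization, 0.030 without preleukemia replicate 1 and 0.025 without leukemia replicate 1 (range -0.039 to 0.030). Members called in leukemia against preleukemia numbered 1 with no filter, 6 with the 4 libraries compared alone, 6 with array weights and 1 with voom. With 1 library left out, members called ranged from 4 to 7 in preleukemia against mock, 5 to 8 in leukemia against mock and 1 to 6 in leukemia against preleukemia. Genes called in preleukemia against mock were 2140, and 1374 with 4 libraries and 1421 with array weights. In leukemia against preleukemia they were 2006, and 1302 with no filter, 3428 with 4 libraries and 3786 with array weights. With 1 library left out they ranged from 520 to 3873 in preleukemia against mock, 1046 to 3848 in leukemia against mock (2809 with all) and 430 to 3449 in leukemia against preleukemia. Quantile normalization moved the median of all genes in leukemia against preleukemia from -0.09 to 0.03. Fewer samples or genes were tested in several of these fits, and otherwise the cause was not tested.

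Libraries of the same replicate number deviated together little (correlations of 0.12, 0.01 and 0.18 between the 3 pairs of groups). The number is that of the library titles, and a shared batch or animal behind it was not tested. With the replicate block, 2118, 2932 and 2060 genes and 6, 8 and 3 members were called in the 3 comparisons. In leukemia against preleukemia these were not the same 3, since the block gave a call to Ms4a2 (limma adjusted p = 0.0186) and ended those of Fcer1a (0.0570) and, beyond the members, Cd200r3 (0.0569). With depth near the floor, Il6, Il4 and the Evi1 levels of Prss34 and Il1rl1 rest on few reads.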
